A study of Drosophila melanogaster with 18 samples.

Results

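The transcripts described here are those of 10 heat shock genes of *Drosophila melanogaster*: the small heat shock proteins Hsp22, Hsp23, Hsp26, Hsp27 and Hsp67Bc, the larger chaperones Hsp68, Hsp83, Hsp60A and Hsp110, and the regulator Hsf. They were chosen by name, and their probe sets were found through the array's gene annotation. Hsp26, Hsp27, Hsp68, Hsp60A, Hsp110 and Hsf, 6 genes in all, had 1 probe set each that matched no other gene. Hsp22 was matched only by 2 probe sets that also match CG4456, a gene that overlaps it, so transcripts of these neighbours cannot be told apart and are named Hsp22/CG4456 below. No probe set was named for the other 3 genes (Hsp23, Hsp67Bc and Hsp83), which were therefore not analysed here. The members thus gave 8 of the 18769 probe sets tested, and 6 of the 11983 genes with a probe set of their own. RNA came from whole bodies of males derived from the LHm population, collected on day 14, when they had been adult for 4 days. Control males had received the X-chromosome from the mother in the usual way. CDX males were sons of a Control father and a DX female, whose joined X-chromosomes pass to daughters together, so that these sons carried the X of the father for 1 generation and the Y of the mother. MLX males came from populations in which the X had passed from father to son through DX females for many generations, apart from males added back from boxes in which the X could recombine in females. By the study's account, the Y of CDX males also came from such populations, where it could have evolved. Each of the 3 treatments had 6 arrays, 2 from each of 3 populations. The labels give 1 male per array, whereas the methods of the study describe pools of males.

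Heat shock proteins are molecular chaperones. The small ones share an alpha-crystallin domain and hold unfolding proteins in a soluble state without using ATP, while members of the Hsp60, Hsp70, Hsp90 and Hsp110 families refold or mature their clients in cycles that use ATP. Hsf is the transcription factor that binds heat shock elements and switches these genes on under stress. Most small heat shock genes of *Drosophila* lie side by side at cytological position 67B, and several are also transcribed without heat, in the germline and in ageing adults. In the RefSeq annotation (Release 6 plus ISO1 MT) the order on 3L was Hsp67Bc, CG4456, Hsp22, CG4461, Hsp26, Hsp67Ba, an antisense RNA gene, Hsp23 and Hsp27. Of the other members, Hsp110 was placed on 3L, Hsp68 on 3R, Hsf on 2R and Hsp60A on X.

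The arrays held the transcripts of male reproductive tissue throughout: the mean log2 value over 5 accessory gland markers lay between 13.24 and 13.88 on every array, and that over 6 testis markers between 12.24 and 12.43. The mean over 14 markers of ovary and female fat body, such as yolk protein and eggshell genes, was above 6.5 on 6 arrays (1 Control, 3 CDX and 2 MLX), where it began at 6.72, and was at most 6.02 on the other 12. The mean over 3 of 4 listed muscle markers ran from 9.36 to 10.12 in Control, from 9.56 to 10.39 among CDX and from 9.89 to 10.46 among MLX males, and so moved in the direction in which Hsp26 differed from Control, with overlap between the treatments. The part of muscle transcripts in the results was not tested. The part of the ovary and female fat body markers in the results was not tested beyond leaving these 6 arrays out, a step added once their values were known. In RNA of whole bodies, fewer cells of a type and less RNA per cell cannot be told apart.

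None of the members passed the test between treatments. Hsp26 came nearest, with higher population means in both CDX and MLX males than in Control males, at about 1.13-fold and 1.14-fold. Hsp110 and Hsp68 had lower population means in CDX males than in Control males, at 0.924-fold and 0.925-fold. The 2 probe sets of Hsp22/CG4456, Hsp27, Hsp60A and Hsf overlapped between treatments in all 3 comparisons. One probe set of Hsp22/CG4456 was called between the populations inside treatments, and the other was not. The call was lost under several alternatives given below.

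Hsp26 encodes a small heat shock protein of the cytosol that is also made in the germline. Its log2 values ran from 10.04 through a median of 10.19 to 10.25 in Control males, from 10.21 through 10.33 to 10.48 in CDX males, and from 10.19 through 10.34 to 10.52 in MLX males. The highest Control array thus lay above the lowest CDX and MLX arrays, but 4 of 6 CDX arrays and 5 of 6 MLX arrays lay above 10.251, the highest Control value. By population, the Control means of Hsp26 were 10.13, 10.19 and 10.19, the CDX means 10.46, 10.27 and 10.29, and the MLX means 10.26, 10.39 and 10.42. Every CDX and MLX population mean lay above every Control population mean, with the smallest gap between Control population 2 and MLX population 1. The difference of Hsp26 between CDX and Control males was 0.170 on the log2 scale (SE 0.064, 95% interval 0.036 to 0.305, adjusted p = 1), and that between MLX and Control males was 0.187 (SE 0.064, 95% interval 0.053 to 0.322, adjusted p = 1). The Control arrays are shared by both comparisons. Between MLX and CDX males Hsp26 differed by 0.017, with a 95% interval from -0.118 to 0.152. Without the 6 arrays high in ovary and female fat body markers, the differences of Hsp26 from Control were 0.197 in CDX and 0.205 in MLX males. Without CDX population 1, the difference between CDX and Control males was 0.110, against 0.170 with it.

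Hsp27, a small heat shock protein found in the nucleus and in the germline, lies at the far end of the same cluster. Its values ran from 9.58 to 9.96 in Control males, from 9.70 to 10.03 in CDX males and from 9.72 to 10.09 in MLX males, with medians of 9.80, 9.78 and 9.85. The ranges of the 3 treatments overlapped. Hsp27 differed by 0.044 between CDX and Control males (95% interval -0.127 to 0.215) and by 0.087 between MLX and Control males (95% interval -0.084 to 0.258), so that a difference as large as that of Hsp26 lay inside both intervals. The first of these was -0.032 without CDX population 1, and the second was 0.027 without MLX population 3.

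Hsp22 encodes a small heat shock protein of mitochondria whose transcript is known to increase with age. Hsp22/CG4456 probe set 1 was the most variable member, spanning 9.46 to 10.84 over the 18 arrays, a 2.61-fold range. Its values ran from 9.51 through a median of 9.96 to 10.44 in Control males, from 9.64 through 9.98 to 10.38 in CDX males, and from 9.46 through 10.20 to 10.84 in MLX males. Both the highest and the lowest array of all 18 were MLX arrays. The MLX populations did not overlap: population 1 gave 10.84 and 10.42, MLX population 2 gave 10.26 and 10.14, and MLX population 3 gave 9.60 and 9.46. The order was different among CDX males, where population 2 was high (10.34 and 10.38), population 3 was between (10.05 and 9.91) and population 1 was low (9.87 and 9.64). The CDX populations did not overlap either. In Control males population 2 overlapped with both others, while population 1 lay above population 3. The 2 arrays of a population were between 0.041 (CDX population 2) and 0.420 (MLX population 1) apart. By contrast, Hsp22/CG4456 probe set 2 stayed between 9.63 and 9.97 on all arrays, with means of 9.79 ± 0.11 for Control, 9.74 ± 0.12 for CDX and 9.75 ± 0.09 for MLX males (SD, n = 6).

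The test for differences between populations inside treatments called probe set 1 of Hsp22/CG4456 (moderated F = 9.89, adjusted p = 0.0309) and none of the other 7. Over all probe sets 1.35% were called by this test, 253 in all, and 16.8% had an unadjusted p under 0.05, as 1 of the 8 members did. The adjusted p was 0.301 for probe set 2, between 0.472 and 0.484 for Hsp26, Hsp27 and Hsp110, 0.627 for Hsf, 0.832 for Hsp68 and 0.845 for Hsp60A. The call for probe set 1 was lost without CDX population 1 (adjusted p = 0.0544), CDX population 2 (0.0819), MLX population 1 (0.107) or MLX population 3 (0.214). It was also lost without the 6 arrays high in ovary and female fat body markers (adjusted p = 0.522), when 6 of 9 populations had 1 array left, and with the 3' minus 5' difference described below as a covariate (adjusted p = 0.221).

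**Figure D1:**
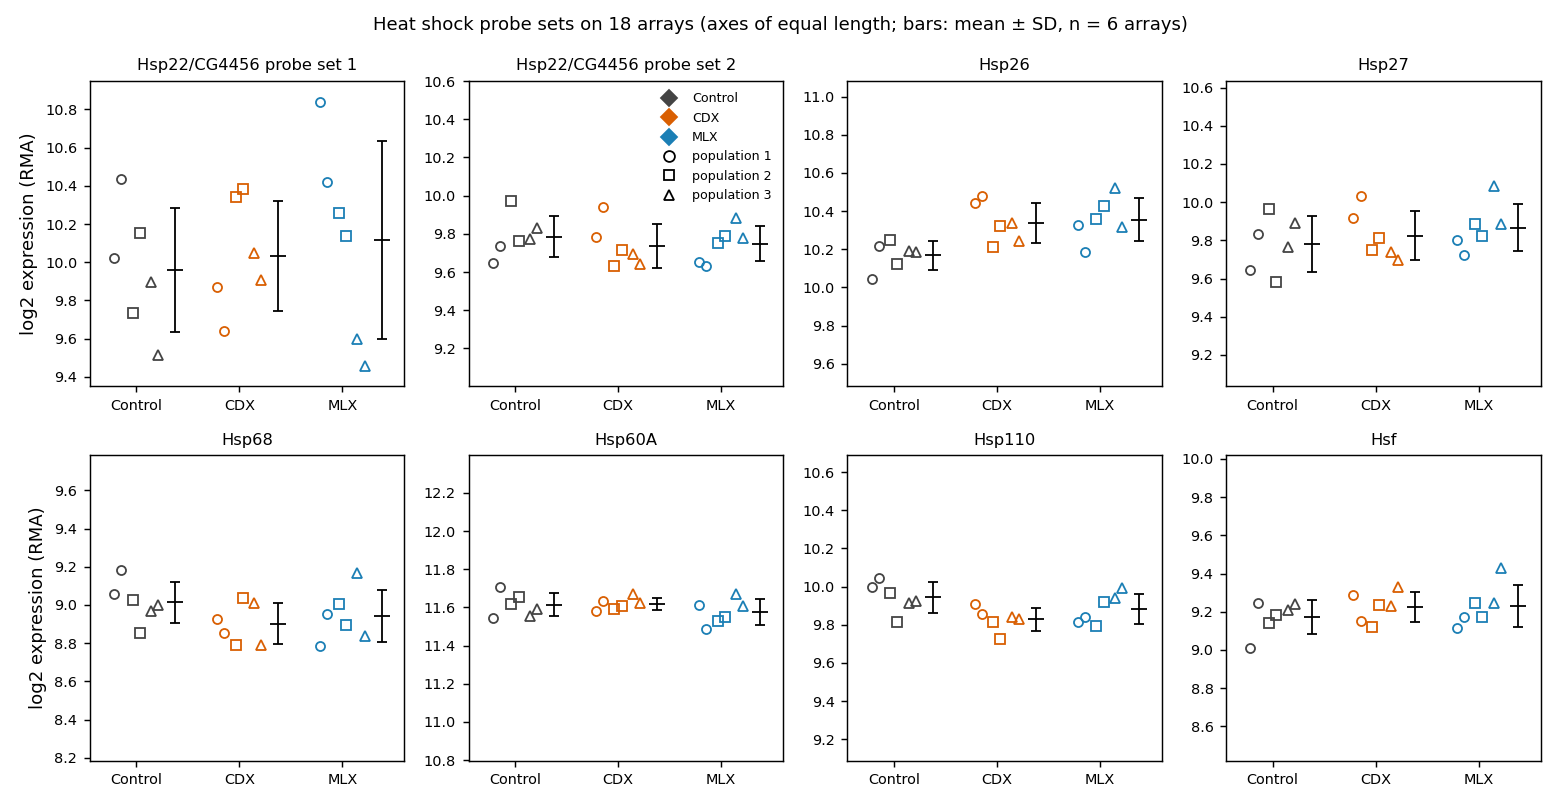
The log2 expression of the 8 heat shock probe sets on the 18 arrays, with 1 panel per probe set, treatments along the horizontal axis, a symbol for each population and black bars for the mean and SD of 6 arrays. Vertical axes have equal length but different positions, and show the wide spread of Hsp22/CG4456 probe set 1 (9.46 to 10.84) beside the narrow spread of Hsp60A (11.49 to 11.71).

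Of the larger chaperones, Hsp60A and Hsp110 had lower SDs over the 18 arrays (0.055 and 0.084) than each of the small members, and Hsp68 (0.120) lay among them. Hsp60A, the chaperonin of the mitochondrial matrix and the only member on the X-chromosome, ran from 11.55 to 11.71 in Control males, from 11.58 to 11.67 in CDX males and from 11.49 to 11.67 in MLX males. Its SD over the 18 arrays was 0.055, lower than that of all but 3.36% of the probe sets tested, whereas the SD of Hsp22/CG4456 probe set 1, at 0.372, was higher than that of 98.6%. Between CDX and Control males Hsp60A differed by 0.005 (95% interval -0.090 to 0.101), and between MLX and Control males by -0.037 (95% interval -0.133 to 0.058). These were the narrowest intervals of the members.

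Hsp110, a nucleotide exchange factor for Hsp70 proteins, ran from 9.81 through a median of 9.95 to 10.05 in Control males, from 9.73 through 9.83 to 9.91 in CDX males, and from 9.79 through 9.88 to 9.99 in MLX males. Its population means were 10.02, 9.89 and 9.92 in Control males and 9.88, 9.77 and 9.83 in CDX males, so that they did not overlap, although the arrays did. The difference of Hsp110 between CDX and Control males was -0.114 (SE 0.052, 95% interval -0.223 to -0.006, adjusted p = 1). The difference was -0.075 without Control population 1, and its SE was 0.061 when population means were fitted. The means of MLX males, from 9.83 to 9.96, overlapped with both, at -0.060 from Control (95% interval -0.169 to 0.048) and at -0.021 without Control population 1.

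Hsp68 belongs to the Hsp70 family and is strongly induced by heat. Its values ran from 8.86 through a median of 9.01 to 9.18 in Control males, from 8.79 through 8.89 to 9.04 in CDX males, and from 8.79 through 8.93 to 9.17 in MLX males. The CDX population means of Hsp68, at 8.89, 8.92 and 8.90, all lay below the Control means of 9.12, 8.94 and 8.98, while the single arrays overlapped widely. The difference was -0.112 (SE 0.077, 95% interval -0.272 to 0.048, adjusted p = 1), and without Control population 1 it was -0.059. In MLX males Hsp68 differed from Control by -0.073 (95% interval -0.233 to 0.087), by -0.021 without Control population 1 and by -0.018 without the 6 arrays high in ovary and female fat body markers.

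Hsf ran from 9.01 to 9.25 in Control males, from 9.12 to 9.33 in CDX males and from 9.11 to 9.43 in MLX males, around means of 9.17, 9.23 and 9.23. The treatments overlapped, and the difference of Hsf from Control was 0.054 in CDX males (95% interval -0.077 to 0.184) and 0.058 in MLX males (95% interval -0.073 to 0.189). The latter was 0.005 without MLX population 3 and 0.119 with the covariate of 3' and 5' signals described below. The transcript of Hsf does not measure the activity of the protein, which is known to be set mainly after translation.

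Counted over the 8 probe sets, none of the members was called in limma at an adjusted p under 0.05 in any comparison, and the adjusted p was 1 for each member in each of them. Among all probe sets the share called was likewise 0% for CDX males set against Control males, 0% for MLX males set against Control males and 0% for the pair of treatments with DX mothers. The study, with its own model and the same threshold, did report transcripts that differed between treatments. Why the fits differ was not tested. At an unadjusted p under 0.05 the members counted were Hsp26 and Hsp110 between CDX and Control males, 2 of 8 beside 2.98% of all probe sets. Between MLX and Control males Hsp26 was counted, 1 of 8 beside 4.19%, and between MLX and CDX males 0 of 8 beside 2.61%. By the moderated t on population means, an alternative fit, Hsp110 was no longer counted between CDX and Control males (unadjusted p = 0.0886). Hsp26 still was (0.0299), beside 539 of all 18769 probe sets. Population means did not overlap for Hsp26, Hsp68 and Hsp110 between CDX and Control males, 3 of 8 beside 8.25% of all probe sets. They did not overlap for Hsp26 alone between MLX and Control males, 1 of 8 beside 8.51%, and for 0 of 8 between MLX and CDX males, beside 6.14%. The arrays of the treatments overlapped for all 8 in each comparison. With so few members these counts are a description and show nothing particular to heat shock genes.

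**Figure D2:**
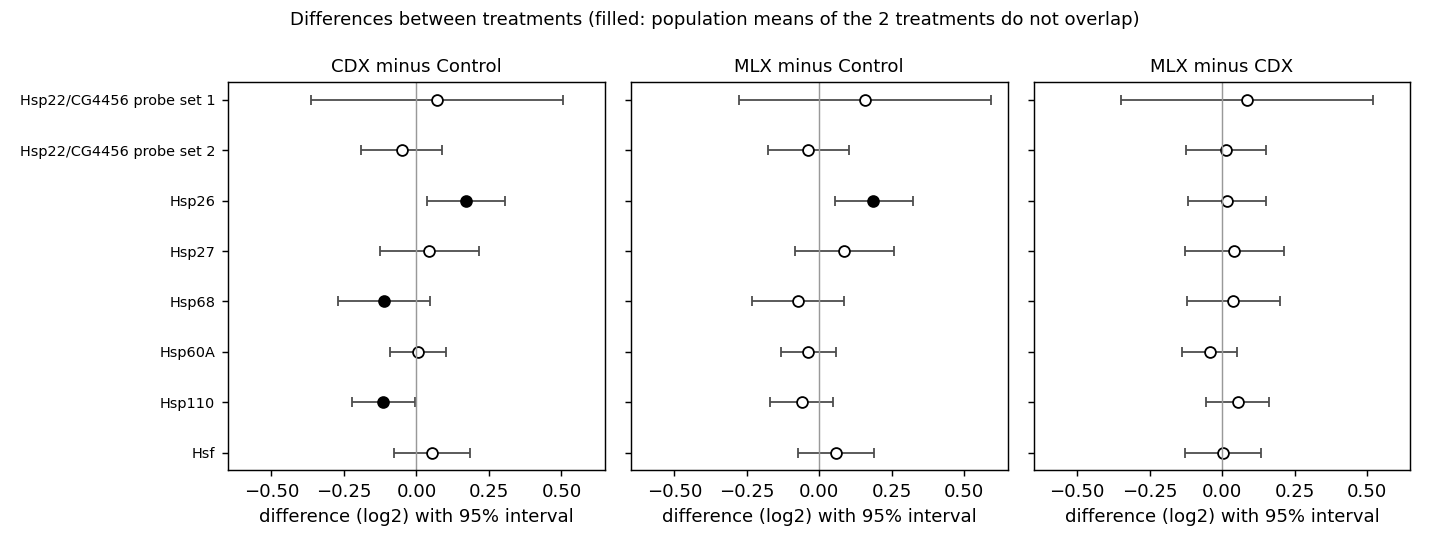
Differences between treatments for the 8 heat shock probe sets, on the log2 scale, with 95% intervals from the fit with populations as a random block. Filled points mark members whose population means do not overlap: Hsp26, Hsp68 and Hsp110 in the first panel, and Hsp26 in the second.

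Small and larger members were then set against each other within each array. The mean of Hsp26 and Hsp27 minus the mean of Hsp68, Hsp60A and Hsp110 has no meaning as a level, since probe sets differ in their response, but its change between treatments can be read. The population means of this difference were -0.322, -0.175 and -0.151 in Control males, 0.091, -0.073 and -0.123 in CDX males, and -0.075, 0.007 and 0.002 in MLX males. Every Control population thus lay below every CDX and MLX population, with the smallest gap, between Control population 3 and CDX population 3, smaller than the SD of either treatment (0.093 in Control and 0.112 in CDX males, n = 3 populations). Averaged by treatment it was -0.216 for Control, -0.035 for CDX and -0.022 for MLX males, so that CDX exceeded Control by 0.181 and MLX exceeded Control by 0.194, whereas MLX and CDX males were 0.013 apart. No test was made of this score, because its members were chosen with earlier results known. Nor does it stand for all small heat shock proteins, as 4 others measured were not in it. In CDX males they differed from Control by -0.151 (l(2)efl), -0.035 (CG13133), 0.003 (CG4461) and 0.003 (CG7409). In MLX males the values were -0.137, -0.081, 0.091 and 0.084 in the same order.

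Both sides of the score contributed to its shift from Control. In CDX males the larger side was lower through Hsp68 and Hsp110, while Hsp60A differed by 0.005. Nor does that side stand for all larger chaperones. In CDX males 5 of 12 chaperonins outside the score were higher than in Control males. So were 2 of 5 other Hsp70 family genes and 4 of 9 genes of the Hsp90 group, cochaperones included. The share over all probe sets was 50.7%. The mean of the small members was 9.97 ± 0.11 for Control, 10.08 ± 0.11 for CDX and 10.11 ± 0.11 for MLX males (SD, n = 6 arrays), and the mean of the larger members was 10.19 ± 0.07, 10.12 ± 0.04 and 10.13 ± 0.07. Without Hsp26 the differences from Control were 0.118 in CDX and 0.144 in MLX males, and without Hsp27 they were 0.244 in both. Without Control population 1 they were 0.128 and 0.141, and without CDX population 1 the first was 0.118. With both probe sets of Hsp22/CG4456 averaged as another small member, they were 0.149 and 0.169.

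**Figure D3:**
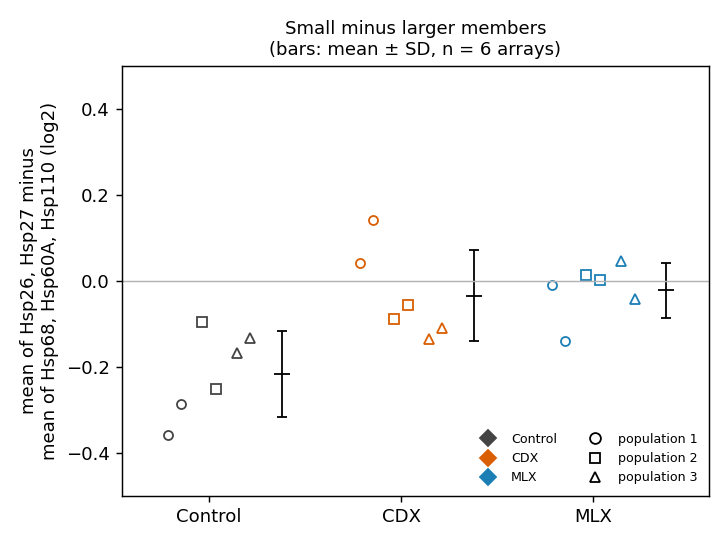
The mean of Hsp26 and Hsp27 minus the mean of Hsp68, Hsp60A and Hsp110 on each array, in log2 units, by treatment, with a symbol for each population and black bars for the mean and SD of 6 arrays. Control arrays lie between -0.358 and -0.096, CDX arrays between -0.135 and 0.141, and MLX arrays between -0.140 and 0.045.

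Members of the 67B cluster varied together from array to array to differing degrees, some in opposite senses. Genes on other chromosomes varied with them as well, as given below. Hsp26 and Hsp27, which RefSeq separates by Hsp67Ba, an antisense RNA gene and Hsp23, had a Pearson correlation of 0.759 over the 18 arrays (Spearman 0.649), and 0.836 once each was centred on its treatment mean. Leaving out the 2 arrays farthest from the median of Hsp26 gave 0.627. Hsp27 and Hsp22/CG4456 probe set 2 correlated at 0.769 (Spearman 0.806), and Hsp27 and probe set 1 at -0.485. For Hsp26 the values were lower, at 0.471 with probe set 2 (0.858 centred on treatments) and -0.210 with probe set 1 (-0.443 centred). The 2 probe sets of Hsp22/CG4456 ran against each other, at -0.658 (Spearman -0.692), -0.690 without the 2 farthest arrays and -0.776 over the 9 population means. Only 1.95% of all probe sets had a lower correlation with probe set 1 than probe set 2 had. MLX population 3, lowest in probe set 1, was high in probe set 2 (9.88 and 9.78), and MLX population 1, highest in probe set 1, was low in probe set 2 (9.65 and 9.63). The arrays are not all independent, since those of a population share their flies' origin, and these correlations are descriptions.

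**Figure D4:**
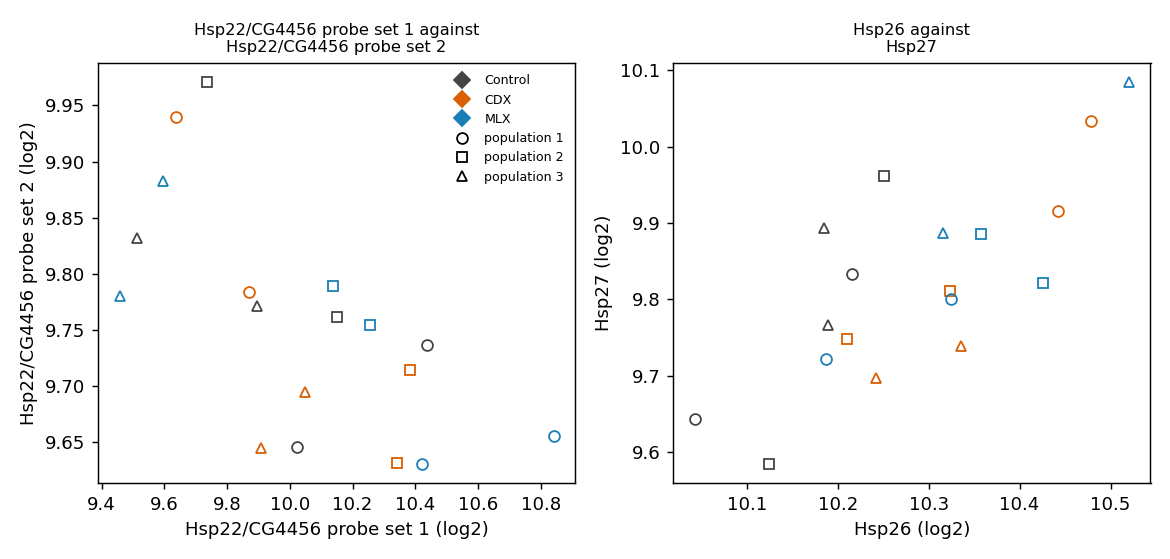
Hsp22/CG4456 probe set 1 against probe set 2 (left, correlation -0.658) and Hsp26 against Hsp27 (right, correlation 0.759), in log2 values on 18 arrays, coloured by treatment and with a symbol for each population. The left cloud falls and the right cloud rises.

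CG4461, another member of the alpha-crystallin family and the gene between Hsp22 and Hsp26, followed probe set 1. CG4461 ran from 11.73 to 12.15 in Control males, from 11.86 to 12.15 in CDX and from 11.84 to 12.28 in MLX males, and its correlation was 0.872 with Hsp22/CG4456 probe set 1 and -0.725 with probe set 2. With Hsp26 it was -0.282 and with Hsp27 -0.593. CG4461 itself was not called between populations (F = 3.73, adjusted p = 0.228).

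Values of the whole array moved with these transcripts. The difference between 3' and 5' probe sets of the Affymetrix control transcripts, a common measure of RNA integrity, correlated at -0.659 with Hsp22/CG4456 probe set 1 (Spearman -0.577), and between -0.195 and 0.395 with the other 7 probe sets. It was lowest on an array of MLX population 1 (1.19), where probe set 1 was highest. Its part in the difference between populations was not tested beyond the fit with it as a covariate. The leading axis of variation among the 18 arrays, after centring on treatments, held 19.7% of the variance of all probe sets, and itself correlated at -0.641 with the 3' minus 5' difference. The axis correlated at 0.803 with probe set 1, 0.808 with CG4461, -0.712 with probe set 2, -0.648 with Hsp26, -0.638 with Hsp27 and -0.728 with Hsf. The median absolute value over all probe sets was 0.383, and 3.22% of them were as far from 0 as probe set 1. Hsp68 (-0.172), Hsp110 (-0.275) and Hsp60A (-0.416) were nearer to the bulk of the array. The mean over ovary and female fat body markers correlated at 0.337 with Hsp26 (Spearman 0.467), at -0.345 with Hsp68 and between -0.136 and 0.161 with the other 6.

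The genes whose variation was most like the mean of Hsp26 and Hsp27, after centring on treatments, were uno (0.940), mAcon2 (0.936), ste24b (0.919), CG8001 (0.917) and Tim13 (0.916), on 2R, 3R, 2R, 3L and 3L, by Pearson correlation over the 18 arrays. Of these, mAcon2 encodes a mitochondrial aconitase and Tim13 a part of the machinery that imports proteins into mitochondria. For Hsp22/CG4456 probe set 1, a search added after its spread was seen, they were CG8206 (0.945), Balat (0.944), Chchd2 (0.927), Coq7 (0.924) and Ubc6 (0.924), on X, 2R, X, X and 3R. The share of X over all probe sets was not counted. All 10 were measured on the same arrays as the heat shock transcripts.

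Of 54 other chaperones and cochaperones listed, 41 had a probe set of their own. None was called in limma at an adjusted p under 0.05 in any of the comparisons or between populations, and 3 of the 41 had an unadjusted p under 0.05 between populations, where the share over all probe sets was 16.8%. Between CDX and Control males, 15 were higher and 26 lower, with a median difference of -0.009 beside 0.001 over all probe sets. Between MLX and Control males 20 were higher and 21 lower, with a median of -0.002 beside 0.002, and between MLX and CDX males 22 were higher and 19 lower, with a median of 0.006 beside 0.002. At an unadjusted p under 0.05, Roe1 and l(2)efl were counted between CDX and Control males (2 of 41, beside 2.98% of all probe sets), Hsc70-5 between MLX and Control males (1 of 41, beside 4.19%) and 0 of 41 between MLX and CDX males (beside 2.61%). These 3 genes are described next by the rule for naming genes, and not because their number stands out. Population means did not overlap for 17.1%, 19.5% and 4.88% of the 41 in the same order, where the shares over all probe sets were 8.25%, 8.51% and 6.14%.

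The protein encoded by l(2)efl is a small heat shock protein of the alpha-crystallin family, and its values went the other way from those of Hsp26. It ran from 13.00 through a median of 13.10 to 13.24 in Control males, from 12.83 through 12.98 to 13.08 in CDX males, and from 12.79 through 13.01 to 13.10 in MLX males. All CDX and MLX population means of l(2)efl lay below all Control means, which were 13.10, 13.17 and 13.11. The differences from Control were -0.151 in CDX males (95% interval -0.289 to -0.013) and -0.137 in MLX males (95% interval -0.276 to 0.001), each with an adjusted p of 1.

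Hsc70-5 and Roe1 work together in the mitochondrial matrix, as the Hsp70 of that compartment and its nucleotide exchange factor. Hsc70-5 had population means of 11.85, 11.79 and 11.78 in Control males, 11.70, 11.67 and 11.76 in CDX males, and 11.63, 11.63 and 11.75 in MLX males. The Control means were the highest, and the difference of Hsc70-5 between MLX and Control males was -0.135 (SE 0.050, 95% interval -0.239 to -0.031, adjusted p = 1). Roe1 had population means of 9.85, 9.84 and 10.00 in Control males and 9.84, 9.59 and 9.65 in CDX males, which overlapped by a small margin. The difference of Roe1 was -0.200 (SE 0.083, 95% interval -0.373 to -0.027, adjusted p = 1). In the comparison in which Roe1 was lower, Hsc70-5 differed by -0.096 (95% interval -0.199 to 0.008). Hsp60A, whose product is the chaperonin of the same compartment, was 0.005 apart there, as given above.

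The heat-inducible Hsp70 genes are near-identical copies and were matched only by 5 probe sets shared among them, 1 of which also matched CG31343. Of the 4 that matched Hsp70 genes alone, mean log2 values over the 18 arrays were 6.51, 3.15, 4.52 and 5.86, and differences between treatments lay between -0.152 and 0.113. Each had an adjusted p of 1, and which copy a value comes from is uncertain.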

How the data were processed

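Expression was measured on 18 Affymetrix GeneChip Drosophila Genome 2.0 arrays. The authors normalized them by RMA in affy and deposited log2 values, which were read unchanged for 18952 probe sets, including 183 Affymetrix controls. Versions are not given in the sources used here. The number of arrays limits the precision. Genes came from the platform annotation, with symbols updated through RefSeq, and 13647 probe sets had 1 gene, 402 several and 4720 none.

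The model in limma 3.58.1, under R 4.3.3, held treatment as a fixed effect. Arrays of a population were linked through duplicateCorrelation (correlation 0.192), and eBayes gave two-sided tests with 19.46 degrees of freedom. Benjamini-Hochberg adjustment covered 18769 probe sets, and the threshold was 0.05. Populations within treatments were compared by the moderated F over 9 population means. The fits were tested on simulated data. The differences between treatments added there were larger than any of the members here, so whether the fit would find differences of this size was not shown. Arrays of a population were treated as correlated, with 1 correlation for all probe sets. The degrees of freedom thus rest on arrays, and populations were not the only units. In the alternative fit on population means they were. There the SE of a difference rose from 0.208 to 0.251 for Hsp22/CG4456 probe set 1 and fell from 0.077 to 0.061 for Hsp68. CDX males had Control fathers and a Y from MLX populations, so populations of different treatments may share origin.

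The members and lists were chosen with earlier results of these data known. All members are named, with other chaperones at an unadjusted p under 0.05 and the 5 genes most like the small members. CG4461, the Hsp70 probe sets and the genes most like Hsp22/CG4456 probe set 1 were added after values were seen. Small were to be set against larger members over 5 and 4 genes, and 2 and 3 could be used. Alternatives were population means, independent arrays, a block by population number, other scalings, a filter on signal, robust moderation and each population left out. The 3' minus 5' covariate, the removal of 6 arrays and the use of Hsp22/CG4456 as a small member were added later, with values known. Figures were drawn in Python 3.11.15 with matplotlib 3.10.9.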

Additional observations from a re-analysis of the deposited data

How the results depend on the processing

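None of the 8 members passed the threshold between treatments under any of the 18 alternatives to the fit, where the lowest adjusted p was 0.513 (Hsp26, MLX minus Control, arrays as independent samples). Hsp26 kept its direction from Control in all of them, but many could not change it. Population means, independent arrays, the block by number, the filter on signal and robust moderation alter only the SE of a difference. Leaving out a population of the treatment not compared does the same. When a population of a compared treatment was left out, the difference was 0.110 to 0.206 in CDX and 0.156 to 0.237 in MLX males. Whether populations of the same number are related across treatments is not known here, and the correlation of their deviations (-0.137 to 0.384) cannot settle it. With the replicate block by number 0 probe sets were called in each comparison between treatments. The differences of Hsp26 from Control, 0.170 and 0.187, cannot change under this block, as the layout is balanced. Their SE went from 0.064 to 0.074. None of the differences that turned their sign passed the threshold. Leaving out populations gave, for Hsp22/CG4456 probe set 1, -0.093 to 0.211 (CDX minus Control), -0.097 to 0.455 (MLX minus Control) and -0.169 to 0.383 (MLX minus CDX). For probe set 2 it gave -0.085 to 0.016 (MLX minus Control) and -0.027 to 0.078 (MLX minus CDX). For MLX minus CDX it gave -0.019 to 0.078 for Hsp26, -0.017 to 0.118 for Hsp27 and -0.049 to 0.048 for Hsf, and for CDX minus Control -0.032 to 0.097 for Hsp27 and -0.013 to 0.017 for Hsp60A. Hsp60A was also at -0.002 (CDX minus Control) under median centring and at -0.008 after repeated quantile normalization. With the 3' minus 5' covariate probe set 1 gave -0.135 (MLX minus Control) and -0.192 (MLX minus CDX). Without the 6 arrays high in ovary and female fat body markers it gave -0.033 (CDX minus Control), probe set 2 gave 0.017 (CDX minus Control) and -0.028 (MLX minus CDX), and Hsf gave -0.040 (MLX minus CDX). The cause was not tested.

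Counts over all probe sets were 0 to 4 for MLX minus Control and 0 to 1 for MLX minus CDX when a population was left out, and 1 for MLX minus CDX with independent arrays. Of those called between populations, 253 in all, there were 81 to 288 when a population was left out, 407 in the brighter 50% of the probe sets, 504 with trend and robust moderation, 53 with the 3' minus 5' covariate and 35 without the 6 arrays. The small minus larger difference stayed within 0.088, the spread between population means, of its value under every alternative run. That margin is wide beside differences of this size. With populations left out it was 0.118 to 0.225 (CDX minus Control), 0.141 to 0.226 (MLX minus Control) and -0.031 to 0.076 (MLX minus CDX). The last of these changed sign. Averaging probe sets of a gene changes nothing, as each gene of that score has 1, and leaving out Hsp67Bc was not run, as it was not measured.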
